A study of Rattus norvegicus with 6 samples.

Results

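The transcripts described here are 9 chemokine ligands of the CXC and CX3C families, Cxcl1, Cxcl9, Cxcl10, Cxcl11, Cxcl12, Cxcl13, Cxcl14, Cxcl16 and Cx3cl1, which were taken by gene name from the 30957 genes listed in the gene table. Each name matched 1 row. RNA-seq was performed on the ipsilateral side of the lumbar enlargement, freed of meninges, of female Wistar rats on day 14. In BCP (bone cancer pain) rats, living cells of Walker 256, a breast carcinoma line from the rat, had been placed in the marrow cavity of the left tibia, and in sham-operated rats the same operation had been done with heat-killed cells of that line. There were 3 libraries per group, called sham 1 to 3 and BCP 1 to 3 below, and all were ribosome-depleted, strand-specific total RNA libraries. The labels call them triplicates without saying that each came from its own rat, so p-values measure the spread between these libraries, which may in part be technical.

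Chemokines are small secreted proteins that guide leukocytes along concentration gradients through G protein-coupled receptors, and the CXC and CX3C names refer to the spacing of the first conserved cysteines. Most CXC ligands are secreted, whereas CXCL16 and CX3CL1 are made as membrane-anchored proteins on a mucin stalk and are released by proteases. In the spinal cord CX3CL1 is known as a neuronal ligand whose receptor CX3CR1 sits on microglia, and CXCL12 is known for guiding cell migration in development. CXCL9, CXCL10 and CXCL11 are the interferon-inducible ligands of CXCR3, a receptor of activated T cells, and CXCL13 is the ligand of CXCR5, a receptor of B cells and follicular helper T cells.

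Gene counts summed to between 13366905 and 15004290 in the sham libraries and between 11779485 and 13764758 in the BCP libraries, and 14908 genes passed the filter on low counts. Markers of neurons, astrocytes and oligodendrocytes and the lumbar Hox genes had counts in every library. Among the lists of marker genes, the summed T cell markers were between 0.140 and 0.458 CPM (counts scaled to a common library total) in sham. Cd3d and Cd5 were at 0 in all sham libraries. In the BCP libraries the sum was between 16.1 and 24.8 CPM, and all 5 tested markers were up-regulated, beside 6.35% of all tested genes. These 5 had at most 6 counts in any sham library and passed the filter only through the BCP libraries. They could thus be called only as higher. The summed microglia markers went from between 323 and 394 CPM to between 691 and 808.0 CPM, with 3 of 7 up-regulated (Aif1, Itgam and Csf1r). The summed neutrophil markers went from between 0.153 and 0.676 CPM to between 2.0 and 4.82 CPM. Of these only S100a8 was tested and up-regulated, with 1, 0 and 0 counts in sham and 23, 15 and 10 in BCP. It too passed the filter only through BCP and could be called only as higher. The untested S100a9 had 0, 2 and 3 counts in sham and 15, 9 and 10 in BCP, and Mpo had 1, 1 and 6 and 8, 2 and 1. Elane, Retnlg and Camp had at most 5 counts in any library. Both tested red blood cell markers were up-regulated, from between 23.1 and 24.8 CPM to between 54.7 and 69.1 CPM. B cell markers stayed too low to test, at between 0.210 and 0.541 CPM and between 0.929 and 1.14 CPM, and none of the lists of monocytes and macrophages, astrocytes, neurons, oligodendrocytes, endothelial cells, meninges, nerve root or epithelial tumour held a gene past the thresholds. By the adjusted p-value alone the astrocyte markers went in both directions, with Gfap higher at a log2 fold change of 0.80 and Slc1a2 and Aldh1l1 lower at -0.37 and -0.26, and their summed level of 4039 to 4317 CPM in sham and 5839 to 7598 CPM in BCP had its top value from Aqp4, which stood at 2415 CPM in BCP 1 alone and at 360 and 362 CPM in BCP 2 and 3. All 5 oligodendrocyte markers were lower by the adjusted p-value alone, from a summed 36828 to 41977 CPM in sham to 26267 to 29420 CPM in BCP. By this measure 12.1% of all tested genes were lower and 15.8% higher. Also lower were 3 of 6 neuron markers, Rbfox3, Slc32a1 and Nefm, at log2 fold changes of -0.34, -0.32 and -0.31. The same held for 1 of 5 nerve root markers, Prph, and 1 of 4 lumbar Hox genes, Hoxc10. None of these 3 lists held a gene higher by this measure. The part of these cells in the results below was not tested.

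In total 4 ligands were DEmRNAs, that is, they passed an adjusted p-value of 0.05 and a fold change of 2 in edgeR's quasi-likelihood test with Benjamini-Hochberg adjustment over all tested genes. Cxcl9, Cxcl10, Cxcl13 and Cxcl16 were up-regulated in BCP rats, which is 4 of 8 tested ligands beside 6.35% of all tested genes. Cxcl13, with at most 5 counts in any sham library, passed the filter only through the BCP libraries and could be called only as higher. Cxcl9 and Cxcl11, at 4 and 6 counts in sham 3, did not pass the filter on their sham libraries alone either. They needed BCP libraries to be tested, which favoured calls as higher. The calls in each direction and the median fold change given here are limited by this. None of the 8 was down-regulated, beside 0.107% of all tested genes, and none was lower at an unadjusted p-value under 0.05 in edgeR or DESeq2. By the adjusted p-value alone, with no threshold on the fold, 5 ligands were higher beside 15.8% of all tested genes, Cxcl12 being the additional one. All 3 BCP libraries lay above all 3 sham libraries for 6 ligands beside 21.7% of all tested genes, and below them for 1 ligand, Cxcl14, beside 19.8%. The median log2 fold change was 2.97 over the 8 tested ligands and -0.01 over all tested genes. Cxcl1 had too few counts to be tested. In bulk RNA of a tissue, more cells that express a ligand and more RNA per cell cannot be told apart.

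**Figure D1:**
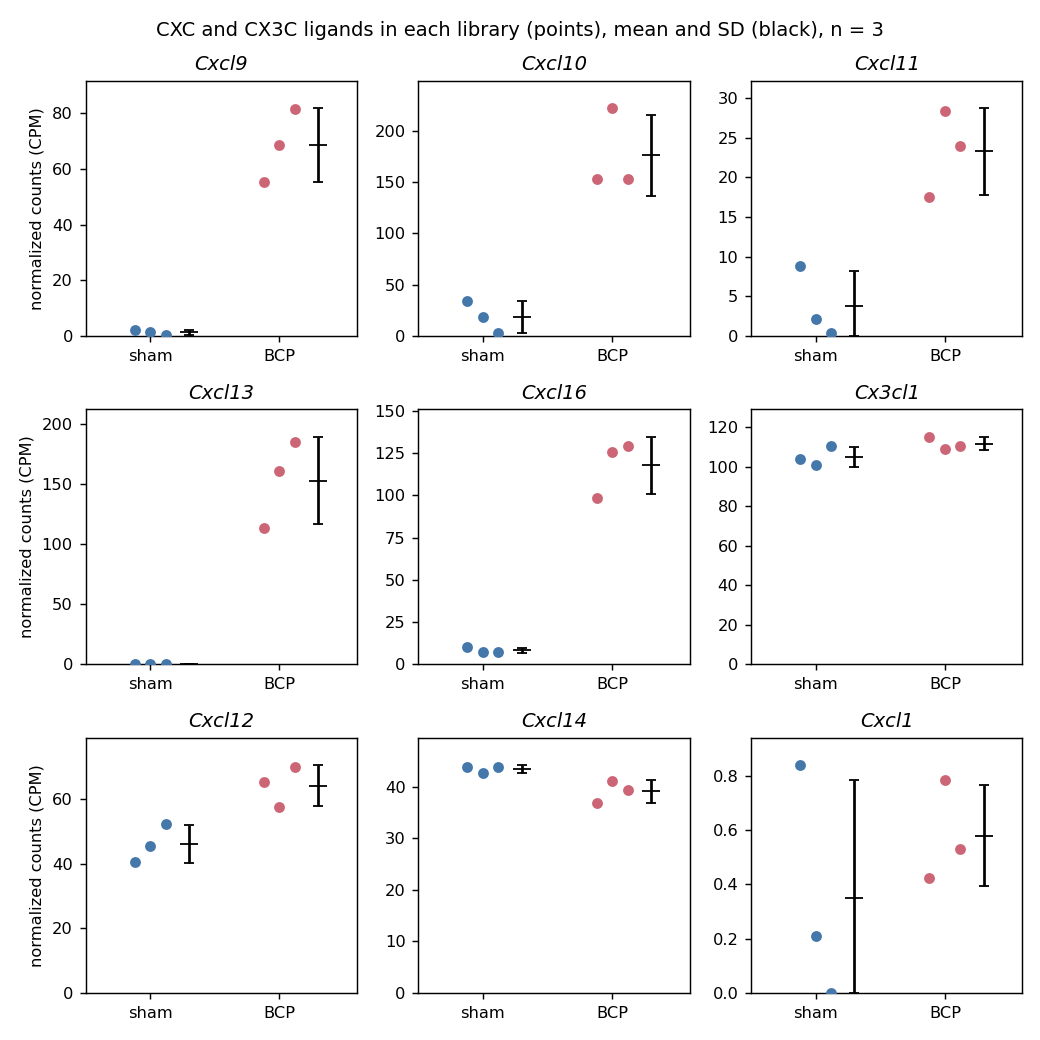
Normalized counts (CPM, linear axis from 0, scaled separately in each panel) of the 9 ligands in the 3 sham and the 3 BCP libraries (points) with the group mean and SD (black, bars cut at 0). The BCP libraries of Cxcl9, Cxcl13 and Cxcl16 lie far above the sham libraries, those of Cxcl10 and Cxcl11 lie above sham libraries that are themselves spread widely, and those of Cx3cl1 overlap with sham.

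**Figure D2:**
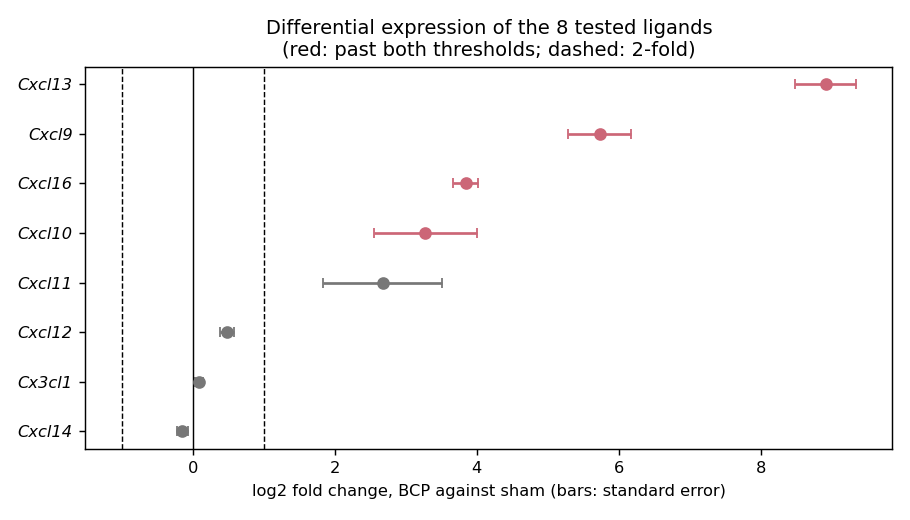
Log2 fold change of BCP against sham (points) with its standard error (bars) for the 8 tested ligands, with 2-fold changes as dashed lines and ligands past both thresholds in red. The values run from -0.15 for Cxcl14 to 8.91 for Cxcl13, and Cxcl11 at 2.67 has the widest error and is not past the adjusted p-value.

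The ligands of CXCR3, Cxcl9 (ENSRNOG00000022242), Cxcl10 (ENSRNOG00000022256) and Cxcl11 (ENSRNOG00000022298), lie side by side on chromosome 14. In the coordinates of the deposited table (Rnor_6.0) Cxcl11 spans chr14:17195014-17198291, Cxcl10 spans chr14:17210733-17212930 and Cxcl9 spans chr14:17228856-17234712, a block of 39.7 kb. The promoters of these neighbours are shown because the genes stand next to each other and moved in the same direction. They are the 250 bases before the gene start, 5′ to 3′, from RefSeq on GRCr8, with matches to NF-kappa-B, ISRE and GAS motifs in capitals:
Cxcl10, chr14:15988816-15989065, plus strand: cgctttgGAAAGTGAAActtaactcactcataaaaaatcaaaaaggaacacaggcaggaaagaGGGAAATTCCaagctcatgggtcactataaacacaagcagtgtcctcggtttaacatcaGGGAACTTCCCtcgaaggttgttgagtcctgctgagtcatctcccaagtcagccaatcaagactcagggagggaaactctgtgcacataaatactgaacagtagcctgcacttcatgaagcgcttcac
Cxcl11, chr14:15973478-15973727, plus strand: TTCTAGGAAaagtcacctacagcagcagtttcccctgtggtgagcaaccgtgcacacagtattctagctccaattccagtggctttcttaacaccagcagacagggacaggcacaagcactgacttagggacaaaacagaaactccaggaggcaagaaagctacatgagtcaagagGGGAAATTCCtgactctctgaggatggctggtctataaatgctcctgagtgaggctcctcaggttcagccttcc
Cxcl9, chr14:16006916-16007165, plus strand: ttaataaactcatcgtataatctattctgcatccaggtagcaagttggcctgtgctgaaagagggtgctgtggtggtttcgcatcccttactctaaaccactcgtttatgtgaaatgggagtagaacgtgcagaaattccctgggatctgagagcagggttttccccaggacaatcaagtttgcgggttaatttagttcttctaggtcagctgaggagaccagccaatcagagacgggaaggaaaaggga

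The motifs were searched on both strands from 250 bases before to 50 bases after the start, the NF-kappa-B motif by its usual consensus, the interferon-stimulated response element (ISRE) as GAAA and GAAA with any 2 bases between them and the interferon-gamma activated site (GAS) as TTCNNNGAA. The Cxcl10 promoter held an ISRE at -243 to -234 from the start, an NF-kappa-B match at -187 to -178 and an overlapping pair of NF-kappa-B matches, on opposite strands, from -128 to -118. The Cxcl11 promoter held an NF-kappa-B match at -74 to -65 and a GAS match at -250 to -242. In Cxcl9 the only match was a GAS at 33 to 41 after the start, outside the printed bases. Of 27456 rat promoters of the same length, 7.60% held the NF-kappa-B motif, 3.77% the ISRE and 8.68% the GAS motif, and 3, 1 and 2 of the 9 ligands held them. A match describes letters in this window and is not a measured binding site, and a window without a match says nothing about the factor.

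Cxcl9 had 28, 22 and 4 counts in sham 1, 2 and 3 and 653, 960 and 1078 counts in BCP 1, 2 and 3. That is 2.14, 1.54 and 0.270 CPM in sham against 55.2, 68.6 and 81.6 CPM in BCP. The groups lay far apart, the lowest BCP library being 25.9 times the highest sham library, although sham 3 was well below the other sham libraries. The mean rose from 1.31 ± 0.952 to 68.5 ± 13.2 CPM (SD, n = 3), with a log2 fold change of 5.73 ± 0.44 (SE) and an edgeR adjusted p-value of 0.00112, and the call held when any library was left out.

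Cxcl10, which is induced by interferons and by NF-kappa-B in many cell types, had 449, 258 and 48 counts in sham against 1816, 3106 and 2016 counts in BCP. Its CPM was 34.2, 18.0 and 3.24 in sham 1, 2 and 3 and 154, 222 and 153 in BCP 1, 2 and 3. The groups did not overlap, yet sham 1 was 10.6 times sham 3, whereas the BCP libraries lay close together. The mean rose from 18.5 ± 15.5 to 176 ± 39.8 CPM (SD, n = 3), with a log2 fold change of 3.28 ± 0.73 (SE) and an edgeR adjusted p-value of 0.0383. This call was not stable: it was lost without sham 2 (adjusted p-value 0.134), without BCP 1 (0.0851), without BCP 2 (0.118) and without BCP 3 (0.103), and the log2 fold change ran from 2.76 without sham 3 to 4.06 without sham 1.

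Cxcl11, the third ligand of the block, had 115, 31 and 6 counts in sham against 207, 396 and 316 counts in BCP. Its CPM was 8.77, 2.17 and 0.405 in sham 1, 2 and 3 and 17.5, 28.3 and 23.9 in BCP 1, 2 and 3. Every BCP library exceeded every sham library, by 2.0 times at the nearest pair, and sham 1 was 21.6 times sham 3. The log2 fold change was 2.67 ± 0.84 (SE) with an edgeR adjusted p-value of 0.0934, so Cxcl11 did not pass the test. Without sham 1 it was 4.19 with an adjusted p-value of 0.0154.

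In all of these CXCR3 ligands sham 1 was the highest and sham 3 the lowest sham library. The SD of log2 CPM among the sham libraries was higher for Cxcl9, Cxcl10 and Cxcl11 than for 99.8%, 99.95% and 99.97% of tested genes, respectively. Irf1, an interferon-induced transcription factor with the same order of sham libraries, had 14.5, 11.9 and 7.5 CPM in sham against 81.7, 110 and 107 CPM in BCP. Irf1 rose with a log2 fold change of 3.15 ± 0.27 (SE) and an edgeR adjusted p-value of 0.00152. Other interferon gamma pathway genes differed in this order. Jak1 had it in a narrow range (294, 290 and 288 CPM in sham 1, 2 and 3). Ifngr1 (45.7, 50.5 and 46.3), Ifngr2 (32.6, 35.7 and 33.2) and Jak2 (56.5, 48.5 and 54.8) did not. The share of all genes with this order was not determined. The labels give no batch, date or animal that sets the sham libraries apart.

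**Figure D3:**
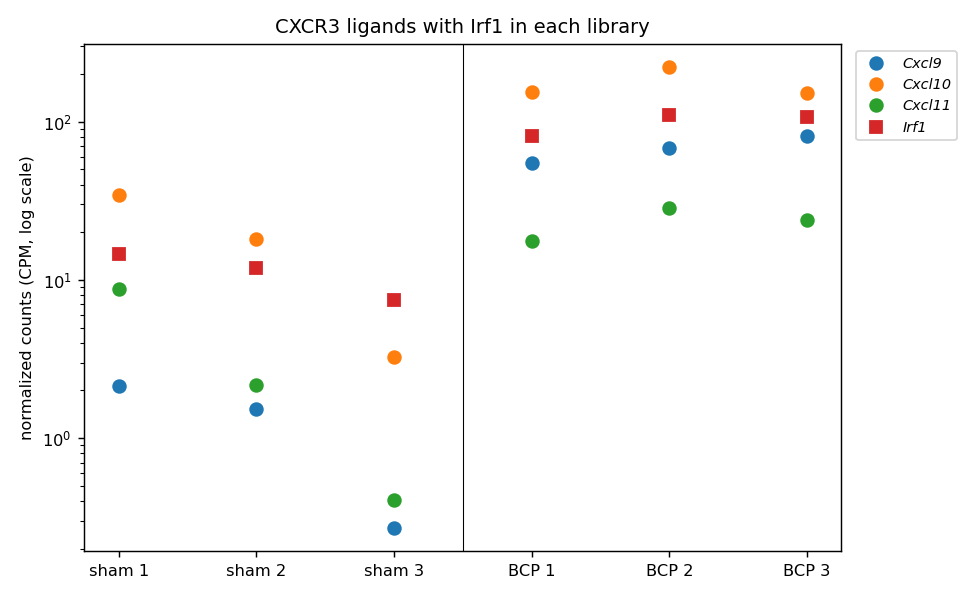
CPM on a log axis of the CXCR3 ligands (circles) and of Irf1 (squares) in each of the 6 libraries. Among the sham libraries all 4 genes are highest in sham 1 and lowest in sham 3, with Cxcl11 falling from 8.77 to 0.405 CPM, whereas the BCP libraries lie closer together. Of the interferon gamma pathway genes not drawn, Jak1 has this order and Ifngr1, Ifngr2 and Jak2 do not.

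The levels of the CXCR3 ligands were also set against each other as ratios. Per length, Cxcl10 was 21.2, 15.5 and 15.9 times Cxcl9 in FPKM in sham 1, 2 and 3 and 3.68, 4.28 and 2.47 times Cxcl9 in BCP 1, 2 and 3. The ratio was thus lower in every BCP library, by 2.36 on the log2 scale in the mean, with a two-sided exact permutation p-value of 0.1, which is the smallest that 3 against 3 libraries can give. The log2 ratio of Cxcl10 to Cxcl11 was 3.13 ± 0.61 in sham and 3.38 ± 0.23 in BCP (SD, n = 3), with a two-sided exact permutation p-value of 0.7.

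The genes around the block were examined as well. Art3, whose span of chr14:17143040-17225389 encloses Cxcl10 and Cxcl11, had a log2 fold change of 0.13 with an adjusted p-value of 0.504. Of the 8 genes other than the ligands within 100 kb of the block, Art3 included, a distance chosen after the values were seen, 6 were tested, with log2 fold changes between -0.35 and 0.37. None was past both thresholds, beside 6.35% of all tested genes higher and 0.107% lower. With 6 tested genes this does not set them apart from all genes. By the adjusted p-value alone Sdad1 was higher (log2 fold change 0.31, edgeR adjusted p-value 0.0168), beside 15.8% of all tested genes. The use of strand in counting is not stated, so reads from parts shared by overlapping genes cannot be told apart.

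Cxcl13 (ENSRNOG00000024899, chr14:15253125-15258207) had the highest fold change of the ligands and ranked 3 of 14908 tested genes by it. It had 5, 5 and 3 counts in sham against 1337, 2246 and 2435 counts in BCP, or 0.381, 0.349 and 0.203 CPM and 113, 161 and 184 CPM. Thus the transcript was near the floor of detection in every sham library and among the abundant ones in every BCP library. The log2 fold change was 8.91 ± 0.43 (SE) with an edgeR adjusted p-value of 0.000203, and the ratio of summed CPM was 501 with a 95% interval of 293 to 941 that covers counting error only. By mean FPKM Cxcl13 ranked 16329 of the 30957 listed genes in sham and 329 in BCP.

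Cxcl16 (ENSRNOG00000026647, chr10:57060007-57064600), a membrane-anchored ligand and scavenger receptor for oxidized lipoprotein, had 135, 105 and 106 counts in sham against 1166, 1756 and 1711 counts in BCP. Its CPM was 10.3, 7.33 and 7.16 in sham 1, 2 and 3 and 98.6, 125 and 130 in BCP 1, 2 and 3. The libraries of each group lay close together and the groups were far apart. The mean rose from 8.26 ± 1.76 to 118 ± 16.8 CPM (SD, n = 3), a fold change of 14.3 and a log2 fold change of 3.84 ± 0.17 (SE), with the smallest adjusted p-value of the ligands, 8.03e-06. The calls for Cxcl13 and Cxcl16 held when any library was left out.

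The promoters of Cxcl13, Cxcl16 and Cxcl1 are shown as well, chosen with their expression values known. In the window Cxcl13 and Cxcl16 held no full match to the 3 motifs, and Cxcl1 held NF-kappa-B matches only. With 1 mismatch allowed Cxcl13 and Cxcl16 held an ISRE, as did 37.0% of promoters, and Cxcl1 did not. Whether the motifs bear on the levels was not tested. The sequences are again the 250 bases before the start from RefSeq on GRCr8, with NF-kappa-B matches in capitals:
Cxcl13, chr14:13917921-13918170, minus strand: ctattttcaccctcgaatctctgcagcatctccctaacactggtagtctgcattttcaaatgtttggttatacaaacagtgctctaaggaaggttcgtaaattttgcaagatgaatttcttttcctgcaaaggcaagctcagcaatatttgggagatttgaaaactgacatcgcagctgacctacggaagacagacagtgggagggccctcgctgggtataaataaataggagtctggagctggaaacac
Cxcl16, chr10:55669951-55670200, minus strand: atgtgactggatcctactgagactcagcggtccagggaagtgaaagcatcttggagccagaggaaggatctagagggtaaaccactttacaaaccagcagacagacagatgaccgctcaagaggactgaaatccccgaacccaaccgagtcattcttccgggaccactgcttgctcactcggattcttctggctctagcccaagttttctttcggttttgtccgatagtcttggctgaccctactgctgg
Cxcl1, chr14:17479322-17479571, minus strand: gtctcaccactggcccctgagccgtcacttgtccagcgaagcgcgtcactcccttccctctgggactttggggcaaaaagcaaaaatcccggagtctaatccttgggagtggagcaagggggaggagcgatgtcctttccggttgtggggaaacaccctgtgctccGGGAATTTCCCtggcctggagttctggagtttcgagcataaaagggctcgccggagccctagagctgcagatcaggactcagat

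Cxcl1 (ENSRNOG00000002802, chr14:18743685-18745457), a ligand of the neutrophil receptor CXCR2, had 11, 3 and 0 counts in sham against 5, 11 and 7 counts in BCP. The groups overlapped, and the filter on low counts left it out. The summed counts were 14 in sham and 23 in BCP, a ratio of CPM of 1.78 with a 95% counting interval of 0.877 to 3.74, so that a change was not detectable at this depth. Without the filter its log2 fold change was 0.79 ± 0.72 (SE) with an adjusted p-value of 0.538, in a fit where 5.18% of all 20645 genes were called higher.

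Cx3cl1 (ENSRNOG00000016326, chr19:10644244-10653800) had 104, 101 and 111 CPM in sham against 115, 109 and 111 CPM in BCP. The groups overlapped in a narrow range. The log2 fold change was 0.08 ± 0.05 (SE) with an adjusted p-value of 0.274. With 1362 to 1638 counts in a library the precision for Cx3cl1 was high.

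Cxcl12 (ENSRNOG00000013589, chr4:149261044-149273891), the ligand of CXCR4 and of the scavenger receptor ACKR3, had 40.6, 45.3 and 52.2 CPM in sham against 65.4, 57.5 and 69.8 CPM in BCP. The lowest BCP library was 1.10 times the highest sham library. The mean was 46.0 ± 5.86 CPM in sham and 64.2 ± 6.26 CPM in BCP (SD, n = 3), a fold change of 1.39 with a log2 fold change of 0.48 ± 0.09 (SE) and an adjusted p-value of 0.00113. It passed the adjusted p-value but not the 2-fold threshold.

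Cxcl14 (ENSRNOG00000011984, chr17:9109731-9117750), a ligand expressed in epithelia and in parts of the nervous system, had 43.9, 42.6 and 43.8 CPM in sham against 36.8, 41.2 and 39.4 CPM in BCP. It was the only ligand whose BCP libraries all lay below the sham libraries, by a narrow margin of 1.04 times. The log2 fold change was -0.15 ± 0.07 (SE) with an adjusted p-value of 0.151, which is not past the threshold.

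On the scale of FPKM, which allows levels to be compared between genes, the order of the ligands differed between the groups. In the sham libraries Cx3cl1 was highest with 33.1 ± 1.59 FPKM, followed by Cxcl14 with 26.5 ± 0.375, Cxcl10 with 16.0 ± 13.4, Cxcl12 with 8.37 ± 1.08 and Cxcl16 with 4.77 ± 0.998 (SD, n = 3). Cx3cl1 and Cxcl14 did not overlap and neither did Cxcl12 and Cxcl16, whereas Cxcl10 overlapped with both of its neighbours. Cxcl11, Cxcl9, Cxcl1 and Cxcl13 followed with mean values from 2.39 down to 0.269 FPKM, and each overlapped with the next. In the BCP libraries Cxcl10 with 157 ± 36.1 FPKM and Cxcl13 with 136 ± 33.3 FPKM led and overlapped with each other. Cxcl16 with 70.1 ± 10.5, Cxcl9 with 46.3 ± 9.25, Cx3cl1 with 36.1 ± 0.799 and Cxcl14 with 24.6 ± 1.55 FPKM came next, with no overlap between neighbours. Cxcl11 with 15.2 ± 3.63 and Cxcl12 with 12 ± 1.18 FPKM overlapped, and Cxcl1 stood last with 0.635 ± 0.207 FPKM.

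The summed FPKM of the 9 ligands was 92.8 ± 16.2 in sham and 498 ± 74.2 in BCP (SD, n = 3). Cx3cl1 and Cxcl14 made up 36.5% ± 7.40 and 29.2% ± 4.90 of the sum in sham and 7.39% ± 1.35 and 4.98% ± 0.475 in BCP. Cxcl10 and Cxcl13 made up 16.0% ± 11.7 and 0.287% ± 0.0594 in sham and 31.6% ± 4.98 and 27.1% ± 3.84 in BCP. Because they are parts of a sum, the shares of Cx3cl1 and Cxcl14 were lower in BCP while their own levels differed little.

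**Figure D4:**
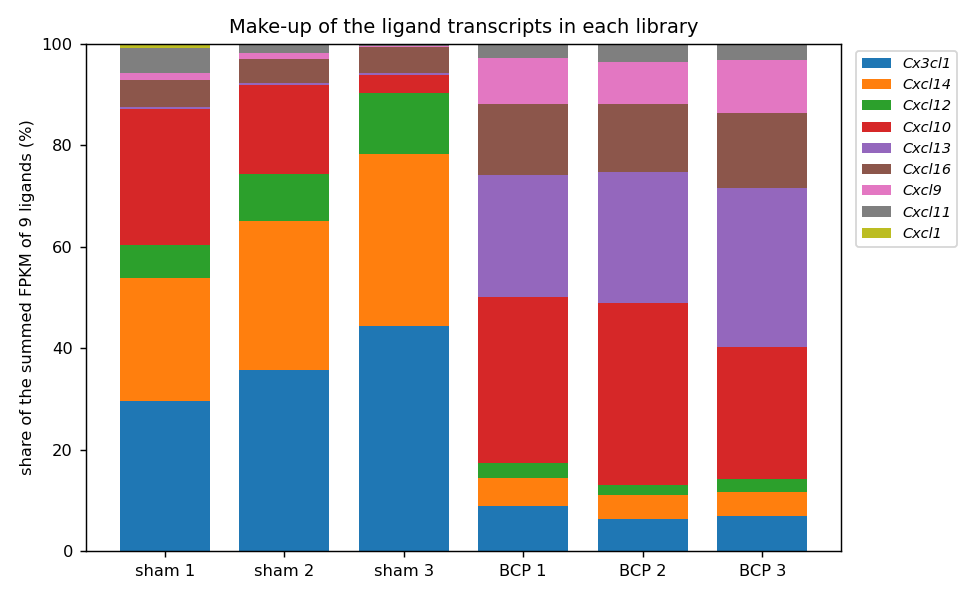
Share of each ligand in the summed FPKM of the 9 ligands, in percent, as stacked bars for the 6 libraries. Cx3cl1 and Cxcl14 fill the larger part of each sham bar, while Cxcl10, Cxcl13, Cxcl16 and Cxcl9 fill most of each BCP bar.

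The receptors of these ligands were examined as a list of 9 names, of which Ackr1 was not among the listed genes and 5 had enough counts to be tested. Of these, 3 were up-regulated, Cxcr3, Cxcr6 and Cx3cr1, beside 6.35% of all tested genes, and none was down-regulated, beside 0.107% (1 was lower at an unadjusted p-value under 0.05 in edgeR, Ackr3, and 0 in DESeq2), and the median log2 fold change of the 5 was 1.42. Cxcr3 and Cxcr6 passed the filter on low counts only through the BCP libraries, so they could be called only as higher. Cxcr3, the receptor of CXCL9, CXCL10 and CXCL11, had 1, 0 and 0 counts in sham against 12, 34 and 26 in BCP. It rose with an edgeR adjusted p-value of 5.96e-06, and the ratio of summed CPM was 77.9 with a 95% counting interval of 13.5 to 3120. Cxcr6, the receptor of CXCL16, had 0 counts in every sham library and 28, 46 and 27 counts in the BCP libraries, and was at least 12-fold higher against a floor of 3 counts in each library (adjusted p-value 4.20e-07). Both are receptors of T cells, whose marker genes moved in the same direction as given above.

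Cx3cr1, the receptor of CX3CL1 on microglia, had 30.6, 27.2 and 26.4 CPM in sham against 66.5, 75.4 and 82.3 CPM in BCP. It rose with a log2 fold change of 1.42 ± 0.09 (SE) and an adjusted p-value of 2.29e-10, while its ligand Cx3cl1 did not pass the test. Cxcr4 had a log2 fold change of 0.76 ± 0.23 (SE) with an adjusted p-value of 0.0187, and Ackr3 of -0.32 ± 0.15 (SE) with an adjusted p-value of 0.115, so that neither receptor of CXCL12 was called. Cxcr5, the receptor of CXCL13, was barely detected, with 2, 3 and 0 counts in sham against 2, 6 and 3 in BCP. Cxcr2 had 0, 0 and 1 and 11, 4 and 6 counts and Cxcr1 had 0 counts in every library, and neither was tested.

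**Figure D5:**
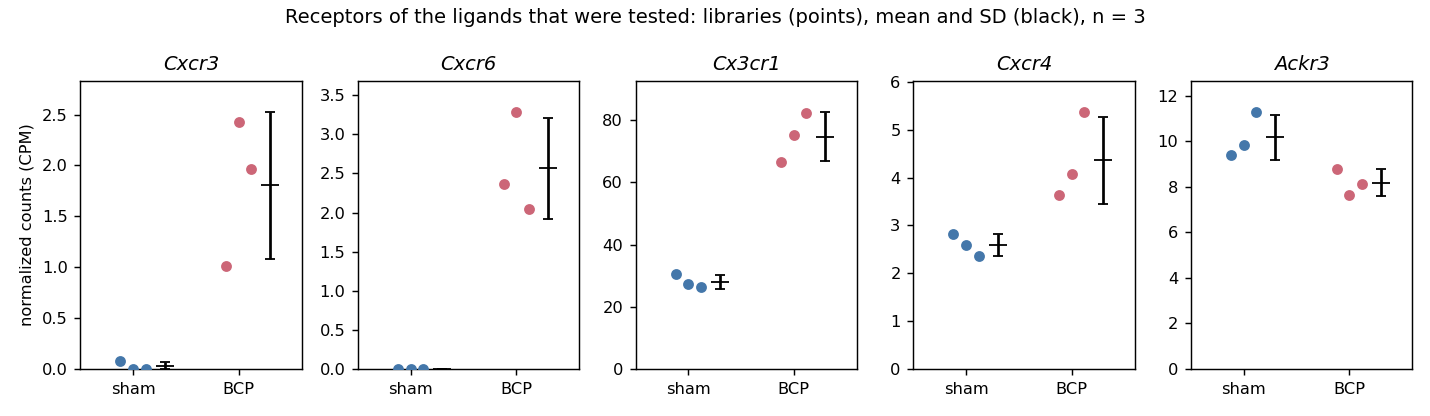
CPM (linear axis from 0, scaled separately in each panel) of the 5 tested receptors in the sham and BCP libraries (points) with the group mean and SD (black, bars cut at 0, n = 3). Cxcr3 and Cxcr6 are at or near 0 in sham, Cx3cr1 goes from between 26.4 and 30.6 to between 66.5 and 82.3 CPM, and Ackr3 is slightly lower in BCP.

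Of the other CXC ligands in a list of 7 names, Cxcl5 was not among the listed genes and only Cxcl17, a mucosal ligand, had enough counts to be tested. Cxcl17 had 16, 16 and 8 counts in sham against 78, 119 and 96 in BCP, and rose with a log2 fold change of 2.96 ± 0.27 (SE) and an adjusted p-value of 4.88e-08. With 8 counts in sham 3, it did not pass the filter on its sham libraries alone. It needed BCP libraries to be tested, which favoured a call as higher. Among the neutrophil-attracting ligands, Cxcl2 and Ppbp had 0 counts in every library, Cxcl3 had 5, 10 and 6 counts in sham and 6, 3 and 9 in BCP, and Cxcl6 had 4, 7 and 1 and 1, 2 and 0. The platelet ligand Pf4 had 4, 5 and 7 counts in sham and 7, 15 and 12 in BCP. The BCP libraries of Pf4 lay above its sham libraries in CPM, and none of these ligands had enough counts to be tested.

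Proteins that cut or release the ligands were taken as a list of 6 names with 4 tested, of which 1 was up-regulated, beside 6.35% of all tested genes, and none was lower even at an unadjusted p-value under 0.05 in edgeR or DESeq2, with a median log2 fold change of 0.51. Ctss, a cathepsin that frees CX3CL1 from the membrane, rose from 64.5, 56.2 and 46.6 CPM in the sham libraries to 123, 126 and 140 CPM in the BCP libraries, a log2 fold change of 1.22 ± 0.12 (SE) with an adjusted p-value of 0.000278. The sheddases of CX3CL1 and CXCL16, Adam10 and Adam17, had log2 fold changes of 0.23 ± 0.05 and 0.32 ± 0.06 (SE) with adjusted p-values of 0.00185 and 0.000441, and Mmp2, which cleaves CXCL12, had 0.69 ± 0.15 with 0.00155. These 3 passed the adjusted p-value but not the 2-fold threshold, and with Ctss all 4 tested genes were higher by the adjusted p-value alone, beside 15.8% of all tested genes. Dpp4, which trims CXCR3 ligands and CXCL12, had 0, 1 and 0 counts in sham and 7, 3 and 3 in BCP and was not tested, like Mmp9.

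Genes of pathways known to induce these ligands were taken as a list of 16 names, which includes the NF-kappa-B inhibitor Nfkbia. They had 18 rows, because Tnf and Ltb have 2 rows each, and 15 rows were tested. Of these 5 were up-regulated, Ifng, Irf1, Tnf, Tnfrsf1a and Il1b, beside 6.35% of all tested genes, and none was lower even at an unadjusted p-value under 0.05 in edgeR or DESeq2, with a median log2 fold change of 0.96. Ifng, Il1b and the tested row of Tnf passed the filter on low counts only through the BCP libraries, so they could be called only as higher. Ifng, the cytokine that gave CXCL9 its older name of a monokine induced by interferon gamma, had 0 counts in every sham library and 18, 25 and 18 in the BCP libraries, at least 7.29-fold higher against a floor of 3 counts in each library (adjusted p-value 4.30e-06). The tested row of Tnf rose with a log2 fold change of 3.53 ± 0.38 (SE) and Il1b with 2.80 ± 0.39, from levels below 0.5 CPM in every sham library, and Tnfrsf1a rose with 1.02 ± 0.09. The chains of the interferon gamma receptor and its kinases passed the adjusted p-value with changes under 2-fold, with log2 fold changes of 0.64 for Ifngr1, 0.96 for Ifngr2, 0.23 for Jak1 and 0.69 for Jak2. As transcript levels these values say nothing of the activity of the proteins.

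By the Euclidean distance of log2 CPM over the 6 libraries, each gene centred on its own mean, the tested genes nearest to each ligand were as follows. Plac8 and Klrk1 lay nearest to Cxcl9, at distances of 0.963 and 1.26 beside a median of 7.44 over all tested genes. The nearest genes lie below the median by selection, so the median gives only the scale of the distances. Ticrr and Ccl5 lay nearest to Cxcl10 (0.635 and 0.673, median 5.25), and RGD1305184 and Ticrr lay nearest to Cxcl11 (0.854 and 0.868, median 5.03). Cxcl10 and Cxcl11 thus shared Ticrr among their nearest genes. Ciita and Scin were nearest to Cxcl13 (1.29 and 1.39, median 10.3), and Naip6 and Ptpn7 to Cxcl16 (0.307 and 0.309, median 4.73). For the ligands that changed little, the nearest genes were Atp7a and Akap17b for Cxcl12 (0.138 and 0.152, median 0.801), Trak1 and Pgm1 for Cxcl14 (0.0506 and 0.0523, median 0.401) and AABR07021840.1 and Sirt6 for Cx3cl1 (0.0398 and 0.0409, median 0.404).

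The table of lncRNAs held 8 transcripts within 10 kb of a ligand, near 5 of the 9 ligands, of which 6 overlapped the ligand and 3 were tested. None was called in edgeR's test, where 1 had an unadjusted p-value under 0.05, beside 1.14% of all tested lncRNAs called higher and 0.074% called lower. NONRATT009773.2 (chr14:15253248-15258192) lies inside the span of Cxcl13 and had 0 counts in every sham library and 16, 48 and 82 counts in BCP 1, 2 and 3. It passed the filter on low counts only through the BCP libraries, so it could be called only as higher. It was at least 17.6-fold higher against a floor of 3 counts in each library, with an edgeR adjusted p-value of 0.105, which became 0.0102 without BCP 1, and a DESeq2 adjusted p-value of 3.05e-07. NONRATT009774.2 (chr14:15253368-15258186), also inside Cxcl13, had 0 counts in every sham library and 4, 4 and 9 in the BCP libraries. Both spans run nearly the whole length of Cxcl13, so that reads of Cxcl13 itself and of these lncRNAs cannot be told apart.

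NONRATT009256.2 (chr14:17196668-17197182), inside Cxcl11, had 2, 1 and 1 counts in sham and 4, 9 and 10 in BCP and was not tested. NONRATT005621.2 (chr10:57059768-57070891), which overlaps Cxcl16, had 4, 4 and 109 counts in sham and 21, 63 and 51 in BCP. It did not pass the filter on its sham libraries alone and needed BCP libraries to be tested. Sham 3 alone set its sham level: the log2 fold change was 0.39 with an edgeR adjusted p-value of 0.950, and 3.52 with 0.0395 without sham 3. NONRATT012254.2, inside Cxcl14, had a log2 fold change of -0.23 with an adjusted p-value of 0.886, and NONRATT012253.2, at the edge of the same gene, had 3, 1 and 1 counts in sham and 19, 1 and 1 in BCP. NONRATT014458.2, 1318 bases from Cx3cl1, had 5, 7 and 12 counts in sham and 3, 9 and 8 in BCP, and NONRATT004491.2 near Cxcl16 had at most 1 count in any library.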

How the data were processed

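Strand-specific, ribosome-depleted total RNA libraries, 3 of sham-operated and 3 of BCP rats, were sequenced by the authors, and groups were taken from the labels. Per the submitters' processing notes and the methods, reads were mapped to Rnor_6.0 with HISAT2 2.0.4 and expression was calculated with StringTie 1.3.0. The authors deposited raw counts of genes and of lncRNAs and, beside them, FPKM, that is counts scaled by length and library; how reads were counted, whether strand was used and how multi-mapped reads were handled is not given in the sources used here. Genes and lncRNAs were each fitted by edgeR 4.0.16 (R 4.3.3) on the group, after filterByExpr and TMM normalization, with robust quasi-likelihood F tests and Benjamini-Hochberg adjustment over all tested rows. A gene was called at an adjusted p-value under 0.05 and a fold change over 2, the thresholds of the study's methods. CPM values are counts divided by the TMM-scaled library size, and log2 fold changes are the fitted ones. TMM factors were 0.982 to 1.02, the biological coefficient of variation was 7.72% for genes and 33.4% for lncRNAs, and chi-square per degree of freedom between libraries of a group was 3.48 to 6.04 for genes, so no library was a copy of another. Intervals and floors cover counting error only, since PCR duplicates may remain.

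The 9 ligands, the gene lists and the alternatives were chosen with earlier results of these data known. Named are all ligands, their receptors and other family ligands, the called genes of the lists with the cleaving enzymes and interferon gamma pathway genes, the 2 genes nearest in profile to each tested ligand and the lncRNAs within 10 kb. A gene that this rule selects is not reported here. Neighbouring genes within 100 kb were added later. The alternatives were DESeq2 1.42.0, no filter on low counts, a mean of at least 10 counts, scaling by the upper quartile or by library size alone, calling by adjusted p-value alone, a test against a 2-fold change, the replicate number as a block and each library left out in turn. Promoters were matched by symbol to RefSeq (GRCr8) for 9 of 9 ligands. The code was tested on simulated counts. Figures were drawn with matplotlib 3.10.9.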

Additional observations from a re-analysis of the deposited data

How the results depend on the processing

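Over the 14 alternatives of the gene fit, Cxcl9, Cxcl13 and Cxcl16 kept their direction and call in each, with log2 fold changes of 5.22 to 6.25, 8.68 to 9.09 and 3.75 to 4.02, and 3 to 5 ligands were called higher and none lower. Cxcl14 (log2 fold change -0.19 to -0.10) and Cx3cl1 (0.05 to 0.12) were called in none. Cxcl10 was not called in the test against a 2-fold change (log2 fold change 3.28, adjusted p-value 0.301), and with single libraries left out its log2 fold change was 2.76 to 4.06 and it was called in 2 of 6. Cxcl11 was 2.12 to 4.19 with single libraries left out and was called in 1 of 6. Cxcl12 was called with no threshold on the fold (0.48).

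The replicate numbers were also fitted as a block. Same-numbered libraries did not deviate together (correlations of -0.105, 0.0440 and -0.0353), and the labels do not pair them. With the block Cxcl10 was at 3.45 with an adjusted p-value of 0.135, and no other call among the ligands changed. Genes called higher numbered 946, or 907 with the block, 2352 with no threshold on the fold and 548 in the test against a 2-fold change. Genes called lower numbered 16, or 37 without the filter on low counts, 1805 with no threshold on the fold, 0 in the edgeR test against a 2-fold change and 15 to 34 with single libraries left out (34 without BCP 1). Of the lncRNAs near ligands 1 was called with DESeq2 and 0 to 1 with single libraries left out (1 without sham 3, 1 without BCP 1). The lncRNAs called there passed the filter only with BCP libraries, as given above. The log2 fold change of NONRATT005621.2 was -0.14 without sham 1, -0.15 without sham 2 and 3.52 without sham 3. With no threshold on the fold 4 of 4 tested genes of ligand processing and 12 of 15 tested rows of the inducer list, Nfkbia included, were called higher, beside 15.8% of all tested genes. Among the inducers Ifng, Tnf and Il1b were tested only through their BCP counts, as given above. As normalized counts per kilobase the sham level of Cxcl14 was 26.9. With 1 mismatch allowed 5 ligands held an ISRE (Cxcl10, Cxcl11, Cxcl12, Cxcl13 and Cxcl16), as did 37.0% of promoters. The causes of these differences were not tested beyond what each setting changes.

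Depth limits Cxcl1, Cxcr5, Cxcr2 and the untested ligands and lncRNAs, whose values rest on few counts in each library. With 3 libraries in each group, 1 library can decide a call where the sham libraries differ widely, as for Cxcl10 and Cxcl11.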
